A study of Homo sapiens with 9 samples.

Results

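The genes described here are 44 genes of DNA repair, measured by microarray in BL2 cells. They form a list of base excision, mismatch, double strand break and translesion repair factors, chosen with earlier results of these data known. The BL2 line comes from a human Burkitt lymphoma and is used in place of germinal centre B cells that have become malignant. Cells were left untreated (control) or received for 6 hrs 200 ng/ml recombinant human CD40L (rhCD40L), the ligand of the receptor CD40, or 1 μM LPS, a bacterial glycolipid sensed by a Toll-like receptor. The label of the control samples gives no culture time. Each of 3 experimental batches gave 1 HG-U133 Plus 2.0 array per condition, 9 arrays in all (n = 3 per condition), and all conditions share the same cell line and medium. Being 1 clonal tumour line, BL2 does not show how other B cells respond, and in a bulk sample fewer cells with a transcript and less of it per cell cannot be told apart. Of the 44 genes, 41 have a probe set that names them alone, of 19775 genes measured in this way. Each was read by its probe set with the highest mean over the 9 arrays. NEIL1, PMS2 and BRCA2 are not analysed here.

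Cells lose, oxidise and deaminate DNA bases all the time. In base excision repair a glycosylase cuts out the damaged base, an endonuclease opens the abasic site that is left, and a polymerase and a ligase fill and seal the gap. Mismatch repair corrects errors of replication, homologous recombination and end joining mend double strand breaks, and translesion polymerases copy across damage that could not be removed in time. Germinal centre B cells depend on these enzymes in a particular way, because they deaminate cytosines in their own antibody genes and process the resulting uracils with UNG and mismatch repair into mutations and, for class switching, into breaks that end joining rejoins.

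For HMCES, ATM and CHEK2, 3 of the genes that fell after CD40L, the 250 bases before the most upstream RefSeq start are shown (build GRCh38.p14), because the expression data bear on their transcript levels. The promoter entries used hold 5 starts for HMCES, 2 for ATM and 1 for CHEK2. Which start BL2 cells use was not tested. HMCES lies at chr3:129278582-129278831 (plus strand), ATM at chr11:108222817-108223066 (plus strand) and CHEK2 at chr22:28741821-28742070 (minus strand). Letters read 5′ to 3′ along the gene. Capitals mark matches on either strand to the GC box GGGCGG, the CCAAT box CCAAT, the E box CACGTG, the E2F motif TTTNNCGC, the NF-κB motif (GGG and TTTCC with 2 bases of any kind between them) and the cAMP response element TGACGTCA. No capitals of different motifs overlap.
HMCES: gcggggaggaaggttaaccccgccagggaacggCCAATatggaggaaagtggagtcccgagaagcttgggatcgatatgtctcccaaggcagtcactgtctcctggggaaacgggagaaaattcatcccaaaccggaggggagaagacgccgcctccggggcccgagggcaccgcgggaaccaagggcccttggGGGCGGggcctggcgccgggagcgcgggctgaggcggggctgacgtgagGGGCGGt
ATM: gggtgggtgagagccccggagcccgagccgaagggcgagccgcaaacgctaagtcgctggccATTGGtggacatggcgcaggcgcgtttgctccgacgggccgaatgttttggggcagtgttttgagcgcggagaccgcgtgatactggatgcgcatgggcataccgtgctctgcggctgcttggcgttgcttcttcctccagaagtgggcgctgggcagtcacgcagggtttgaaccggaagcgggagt
CHEK2: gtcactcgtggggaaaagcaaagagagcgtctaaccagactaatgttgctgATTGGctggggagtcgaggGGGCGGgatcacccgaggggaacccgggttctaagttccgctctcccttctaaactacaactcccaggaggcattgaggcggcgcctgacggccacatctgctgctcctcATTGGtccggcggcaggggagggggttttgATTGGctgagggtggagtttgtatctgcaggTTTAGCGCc
The HMCES window holds 2 GC boxes, the nearer of which begins 7 bases before the start, and 1 CCAAT box. That of ATM holds 1 CCAAT box, and that of CHEK2 holds 3 CCAAT boxes, 1 GC box and 1 E2F motif that begins 9 bases before the start. Windows of the same length were at hand for 38 of the 44 genes and for 15843 protein-coding genes. NEIL2, SMUG1, POLB, NBN, XRCC5 and PRKDC had none. The median window of the repair genes was 64.4% G and C with 21 CpG sites, beside 62.0% and 17 for all. A GC box was present in 78.9% of the repair gene windows and in 55.8% of all, and a CCAAT box in 57.9% and 34.5%. The E box was present in 18.4% and 7.8%, the E2F motif in 13.2% and 7.66%, and the cAMP response element in 7.89% and 2.29%. These letters of the NF-κB motif were in 0 of the 38 windows and in 1.81% of all. The 0 does not cover NEIL2 and NBN, which rose after both stimuli, and so rare a motif can be absent from 38 windows. A match is a match of letters, and the shares were not tested.

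Levels are given on the generalised log2 scale of the deposited values, on which a difference of 1 is a 2-fold change for bright probe sets and understates the change of dim ones. Array medians lay between 6.42 and 6.47, and replicates of a condition correlated at 0.994 to 0.997 across probe sets. All 41 genes had a mean above the median probe set (6.45). Differences were tested with limma, with condition and batch as terms, with adjustment after Benjamini and Hochberg (BH) for all 54613 probe sets. SE is the standard error of a log2 fold change. A gene is called higher or lower where its adjusted p is 0.05 or less. B cell markers of the list CD79A, CD79B, MS4A1, PAX5, CD22 and EBF1 were all present at means of 8.79 or more, while 7 T and NK cell markers stayed between 6.17 and 6.51. Both stimuli moved known targets, with ICAM1 higher by 1.00 after CD40L (BH-adjusted p = 1.34e-07) and by 0.45 after LPS (BH-adjusted p = 0.00112), and TNFAIP3 by 0.63 (BH-adjusted p = 5.69e-06) and 0.39 (BH-adjusted p = 0.00192). Of the other stimulation markers, CD83 was lower after CD40L (log2 fold change −1.02, BH-adjusted p = 9.52e-08), and NFKBIA was not called after either. Among receptors, CD40 had a mean of 8.94 and TLR4 of 7.23, while LY96, the partner of TLR4 in sensing LPS, lay near the median probe set at 6.51. Of these 3 genes, 1 was called lower after CD40L, where their lowest log2 fold change was −0.26, and 0 were called after LPS.

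CD40L left 2 of the 41 repair genes higher and 6 lower than in control cells, and LPS 2 higher and 2 lower. HMCES, which shields abasic sites in single-stranded DNA, fell after both, and NEIL2, a glycosylase for oxidised bases, rose after both. NBN, a subunit of the complex that senses double strand breaks, rose after both, and ATM, the kinase that this complex activates, fell after both. OGG1, MBD4, POLB and CHEK2 were lower after CD40L and not called after LPS. The other 33 genes passed the threshold after neither stimulus.
Over all 19775 genes, 5.03% were called higher and 2.92% lower after CD40L, and 1.62% higher and 1.48% lower after LPS. Among the 12630 genes at or above the median probe set, where all the repair genes lie, these shares were 7.81% and 4.47% after CD40L and 2.51% and 2.3% after LPS. The repair genes had 4.88% higher and 14.6% lower after CD40L, and 4.88% in each direction after LPS. Without HMCES and NEIL2, whose results were known when the genes were chosen, the shares were 2.56% higher and 12.8% lower after CD40L and 2.56% in each direction after LPS. The other genes were also chosen with earlier results of these data known, so these shares are not an independent check. The count of lower genes after CD40L depended on which arrays were in the fit. It was 1 (2.44%) without replicate 1, beside 2.05% of the 12630 genes in the same fit, and 2 (4.88%) without replicate 3, beside 2.13%. It was also 2 without control replicate 1, without CD40L replicate 1 or without CD40L replicate 3, beside 3.32%, 2.75% and 2.72%. Without any other single array it was 4 or 5 (9.76% to 12.2%), beside 3.64% to 5.45%. Without replicate 2 it was 4 (9.76%), beside 5.56%. Without the replicate block it was 4 (9.76%), beside 2.66%. These shares were not tested, and nothing particular to the repair genes is read from them. When the arrays were quantile-normalised the repair genes had 2 higher and 9 lower after CD40L and 2 higher and 8 lower after LPS, while over all genes 776 were higher and 964 lower after CD40L in place of 995 and 578, and 358 and 535 after LPS in place of 320 and 293. The balance of higher and lower calls therefore depends on the scaling. The median log2 fold change of the repair genes was −0.022 after CD40L and −0.057 after LPS, beside 0.0051 and 0.0018 over all genes. Groups of 3 arrays did not overlap for 11 of the 41 repair genes after CD40L, beside 24.6% of the 12630 genes, and for 12 after LPS, beside 18.6%. The comparisons share the control arrays, so that an error in a control moves both.

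**Figure D1:**
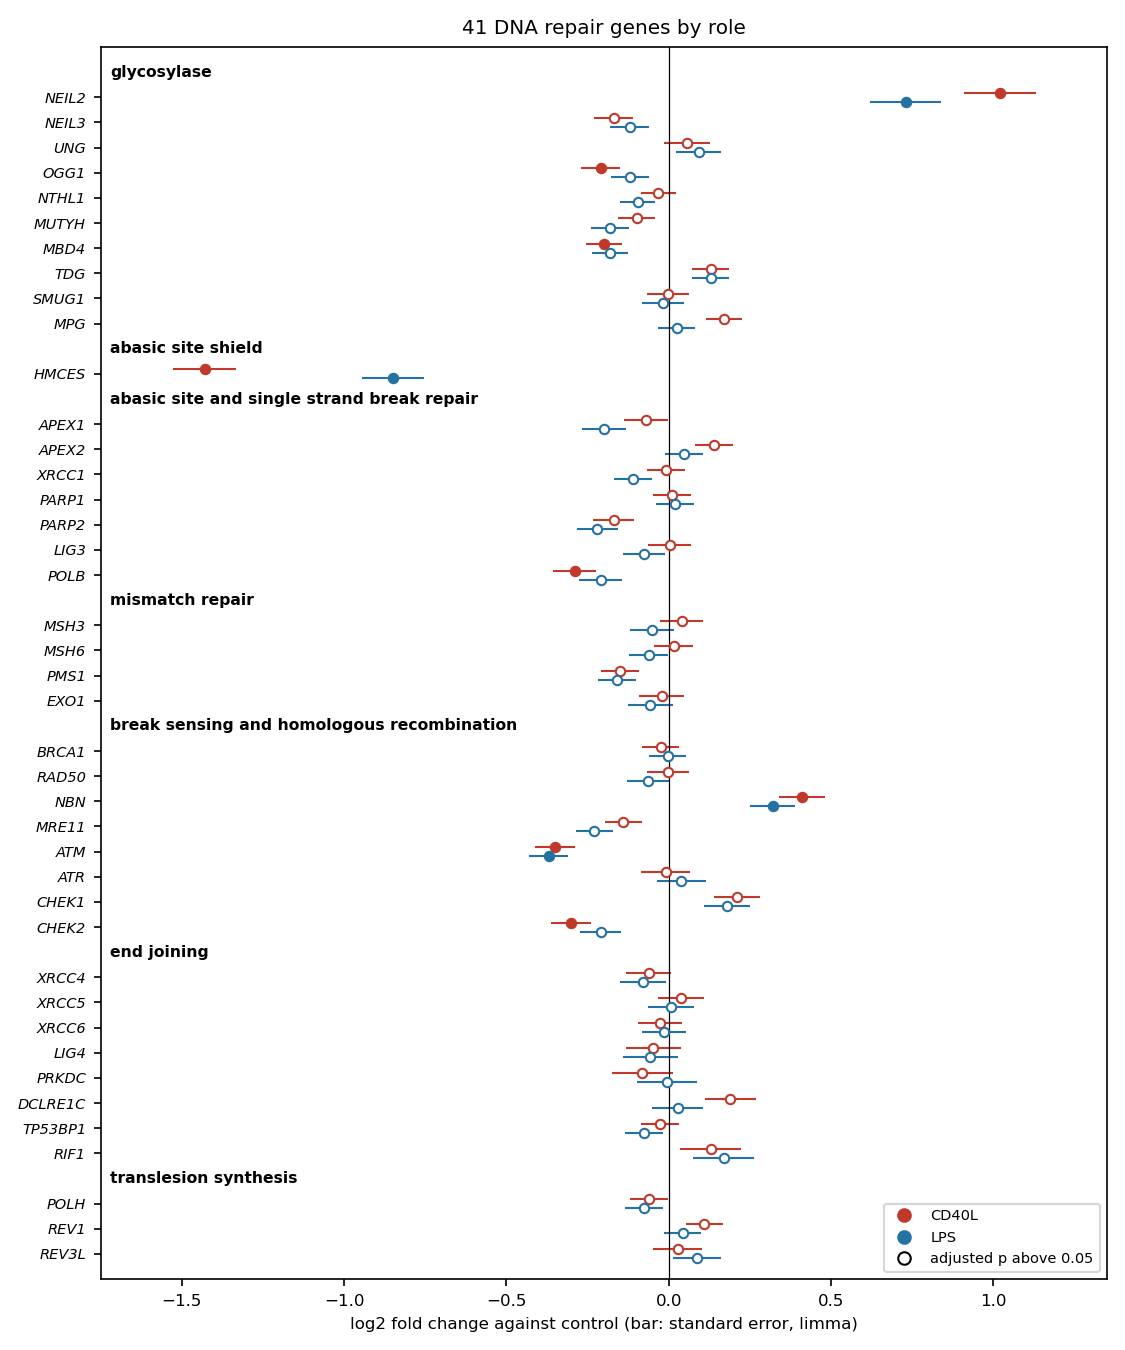
Log2 fold changes against control of the 41 measured repair genes, grouped by role, after CD40L (red) and LPS (blue), with standard errors from limma (n = 3 arrays per condition). Filled points passed the threshold. HMCES (−1.43 and −0.85) and NEIL2 (1.02 and 0.73) stand apart from the other genes, which lie between −0.37 and 0.41. The results of HMCES and NEIL2 were known when the genes were chosen.

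HMCES had the largest change of the 41 genes after either stimulus. Its protein binds abasic sites in single-stranded DNA covalently and keeps them from being cut. Its level was 9.82, 10.09 and 9.95 on the control arrays of batches 1, 2 and 3, 8.59, 8.49 and 8.50 after CD40L, and 9.32, 8.84 and 9.16 after LPS. Every CD40L array lay below every LPS array, and every LPS array below every control array. The mean fell from 9.96 ± 0.14 (SD, n = 3) to 8.52 ± 0.056 after CD40L, a log2 fold change of −1.43 (SE 0.096, BH-adjusted p = 2e-07), or 2.7-fold lower. After LPS it was 9.11 ± 0.24, a log2 fold change of −0.85 (SE 0.096, BH-adjusted p = 0.000189), or 1.8-fold lower. Within batches 1, 2 and 3 the difference was −1.23, −1.61 and −1.46 after CD40L and −0.50, −1.25 and −0.80 after LPS. Among all genes this was the 2nd lowest fold change after CD40L and the 3rd lowest after LPS. HMCES was put on the list with this result known, so its rank is not an independent finding.
The second probe set of HMCES is dimmer, with a mean of 6.93. It read 7.26, 7.41 and 7.18 in control cells, 6.80, 6.59 and 6.62 after CD40L and 7.03, 6.82 and 6.67 after LPS. It was lower too, with −0.61 (SE 0.071, BH-adjusted p = 5.42e-05) after CD40L and −0.44 (SE 0.071, BH-adjusted p = 0.00333) after LPS, on a part of the scale that understates changes. Set directly against LPS, CD40L left HMCES lower by −0.58 (SE 0.096, 95% interval −0.79 to −0.38, BH-adjusted p = 0.009). This direct difference had −0.17 (BH-adjusted p = 0.89) on the dimmer probe set. It also missed the threshold without replicate 1 (−0.51, BH-adjusted p = 0.111), without replicate 3 (−0.54, BH-adjusted p = 0.541) and without the replicate block (−0.58, BH-adjusted p = 0.0679). The same holds without CD40L replicate 1 (BH-adjusted p = 0.0843), 2 (BH-adjusted p = 0.0583) or 3 (BH-adjusted p = 0.178), and without LPS replicate 1 (BH-adjusted p = 0.189) or 3 (BH-adjusted p = 0.186). In the direct comparison 1 of 41 repair genes was lower after CD40L than after LPS and none was higher, beside 0.152% lower and 0.491% higher over all genes. At an unadjusted p under 0.05 there were 3 of the 41 repair genes in either direction, beside 8.43% of the 12630 genes at or above the median probe set, and groups did not overlap for 6, beside 9.94%.

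NEIL2 was the repair gene with the largest rise after both stimuli. It belongs to the glycosylases that remove oxidised pyrimidines and works also in single-stranded and bubble DNA. Its level was 8.25, 7.63 and 7.88 on the control arrays, 8.88, 9.14 and 8.81 after CD40L, and 8.74, 8.74 and 8.46 after LPS. The 3 groups did not overlap, and the control arrays were the most spread. The mean rose from 7.92 ± 0.31 (SD, n = 3) to 8.94 ± 0.17 after CD40L, a log2 fold change of 1.02 (SE 0.11, BH-adjusted p = 2.54e-05), or 2.03-fold. After LPS it was 8.65 ± 0.16, a log2 fold change of 0.73 (SE 0.11, BH-adjusted p = 0.00198), or 1.65-fold. Within batches 1, 2 and 3 it was higher by 0.64, 1.51 and 0.92 after CD40L and by 0.49, 1.11 and 0.58 after LPS. Among all genes it had the 12th highest fold change after CD40L and the 7th highest after LPS. NEIL2 too was put on the list with its result known, so this rank is not an independent finding. The LPS call was lost without replicate 3 (0.80, BH-adjusted p = 0.0656). NEIL2 has 1 probe set of its own here, so no second reading was made. The difference between CD40L and LPS was 0.29 (95% interval 0.061 to 0.53, BH-adjusted p = 0.749). Without control replicate 2, the lowest of the control arrays, its adjusted p was 0.0059, and with only these 2 groups in the fit 0.00292, the estimate staying at 0.29.

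**Figure D2:**
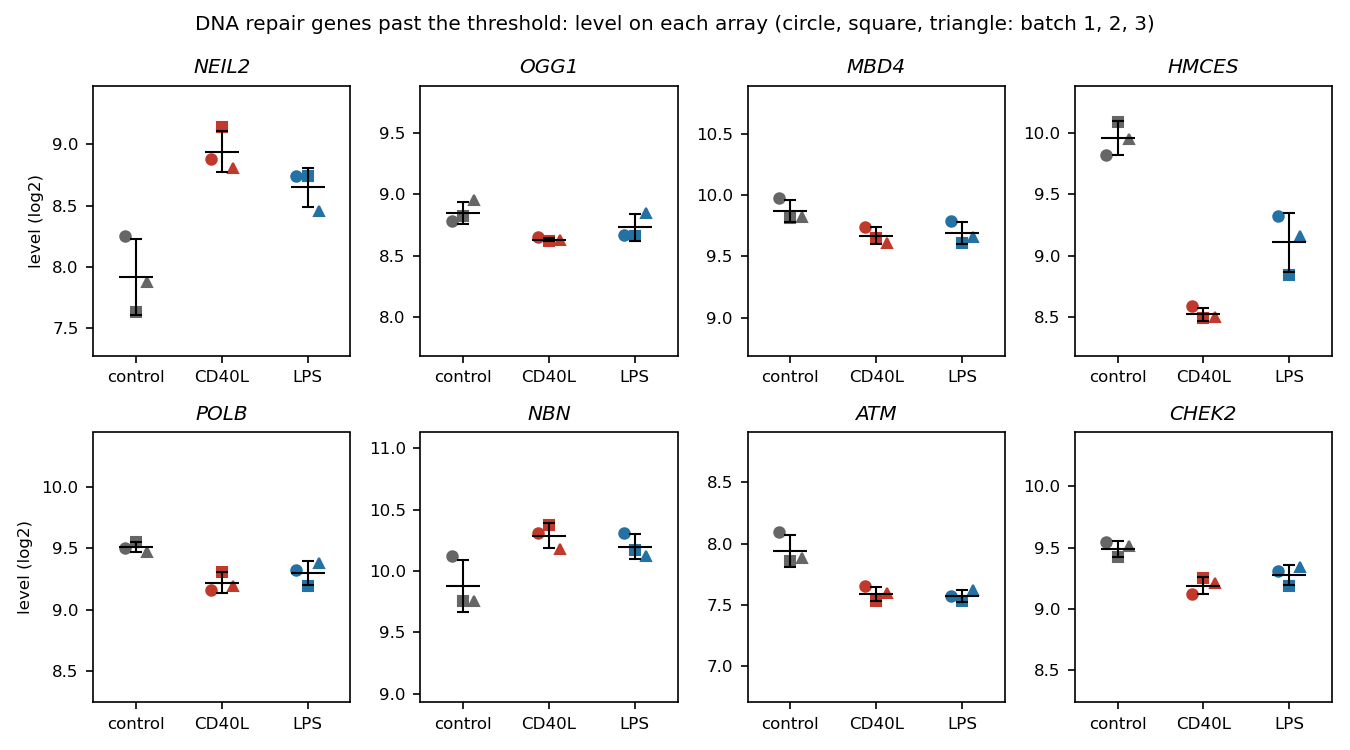
Level of the 8 repair genes called after CD40L or LPS, on the log2 scale, in every control, CD40L and LPS array. Symbols give the batch, bars the mean and SD (n = 3), and every panel spans the same range of log2 units. In the panels of HMCES and NEIL2 the 3 conditions are separated, while the other genes move by less.

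The remaining glycosylases moved little. OGG1, which removes oxidised guanine, read 8.78, 8.82 and 8.95 in control cells, 8.65, 8.62 and 8.63 after CD40L and 8.67, 8.66 and 8.85 after LPS. The CD40L arrays lay below all control arrays, with a log2 fold change of −0.21 (SE 0.059, BH-adjusted p = 0.0445). MBD4, which removes thymine and uracil mispaired with guanine at CpG sites, read 9.98, 9.81 and 9.82 in control cells, 9.74, 9.65 and 9.61 after CD40L and 9.79, 9.61 and 9.66 after LPS. Here all stimulated arrays lay below all control arrays, with −0.20 (SE 0.055, BH-adjusted p = 0.0384) after CD40L and −0.18 (SE 0.055, BH-adjusted p = 0.125) after LPS.
These calls of OGG1 and MBD4 are close to the threshold. Each was lost without any 1 batch, with adjusted p-values of 0.136, 0.074 and 0.285 for OGG1 and 0.309, 0.0569 and 0.175 for MBD4 without replicates 1, 2 and 3. Leaving out any single array also ended them, at 0.0571 to 0.249 for OGG1 and 0.0564 to 0.173 for MBD4, except that MBD4 stayed called without LPS replicate 2 (0.0499). They were lost as well without the replicate block (0.125 and 0.164). The other probe sets did not pass, with log2 fold changes after CD40L of −0.0022 and −0.13 for OGG1 and of −0.16 to 0.016 for MBD4.
UNG, the uracil glycosylase on which antibody gene diversification relies, had log2 fold changes of 0.056 (BH-adjusted p = 0.816) after CD40L and 0.092 (BH-adjusted p = 0.721) after LPS. TDG, which also acts on thymine and uracil opposite guanine, had 0.13 after each (BH-adjusted p = 0.248 and 0.381). MPG, the glycosylase for alkylated purines, had 0.17 (BH-adjusted p = 0.109) and 0.024 (BH-adjusted p = 0.945), and MUTYH, which removes adenine opposite oxidised guanine, −0.099 (BH-adjusted p = 0.478) and −0.18 (BH-adjusted p = 0.151). NEIL3, of the same family as NEIL2, had −0.17 (BH-adjusted p = 0.148) and −0.12 (BH-adjusted p = 0.494), the opposite sign of NEIL2, but was not called. NTHL1, which removes oxidised pyrimidines, had −0.033 and −0.096, and SMUG1, a second uracil glycosylase, −0.0025 and −0.017. Of the 10 glycosylases measured, 1 was higher and 2 were lower after CD40L, and 1 was higher and none lower after LPS. These are counts of 1 or 2 genes, where among the 12630 genes CD40L gave 7.81% higher and 4.47% lower calls, and LPS 2.51% and 2.3%, and the calls of OGG1 and MBD4 were lost in 18 and 17 of 21 alternatives.

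Of 7 genes that open and refill the abasic site or mend single strand breaks, POLB was called after CD40L. POLB is the polymerase that fills the gap of short-patch base excision repair. It read 9.50, 9.55 and 9.47 in control cells, 9.16, 9.31 and 9.19 after CD40L and 9.32, 9.19 and 9.38 after LPS. All stimulated arrays lay below all control arrays, with a log2 fold change of −0.29 (SE 0.066, BH-adjusted p = 0.0165) after CD40L and −0.21 (SE 0.066, BH-adjusted p = 0.152) after LPS. The CD40L call was lost without replicate 1 (−0.26, BH-adjusted p = 0.195), without replicate 3 (−0.29, BH-adjusted p = 0.0944), without control replicate 1 (BH-adjusted p = 0.0633) and without CD40L replicate 1 (BH-adjusted p = 0.122) or 3 (BH-adjusted p = 0.112). The other 2 probe sets of POLB had means of 5.94 and 5.77, below the median probe set, and log2 fold changes of 0.0082 and 0.0021. APEX1, the main endonuclease for abasic sites, had −0.071 (BH-adjusted p = 0.732) after CD40L and −0.20 (BH-adjusted p = 0.203) after LPS. APEX2, its paralogue, had 0.14 (BH-adjusted p = 0.236) and 0.047 (BH-adjusted p = 0.874). PARP2, a sensor of strand breaks, had −0.17 (BH-adjusted p = 0.15) and −0.22 (BH-adjusted p = 0.102), whereas PARP1, the more general sensor, had 0.0093 and 0.019. XRCC1, the scaffold of single strand break repair, had −0.0092 and −0.11, and its ligase partner LIG3 0.0025 and −0.076.

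Among mismatch repair genes none was called on the probe set used. MSH6, which takes part in recognising mismatches, read 11.87, 11.80 and 11.91 in control cells, 12.01, 11.81 and 11.81 after CD40L and 11.91, 11.72 and 11.76 after LPS. These overlap, with log2 fold changes of 0.015 (BH-adjusted p = 0.959) and −0.062 (BH-adjusted p = 0.816). A dimmer probe set of MSH6 moved apart from it. It read 8.23, 8.16 and 8.29 in control cells, 7.79, 7.88 and 7.82 after CD40L and 7.67, 7.83 and 7.70 after LPS. The stimulated arrays all lay below the control arrays, with −0.40 (SE 0.061, BH-adjusted p = 0.000748) and −0.49 (SE 0.061, BH-adjusted p = 0.000363). The second brightest probe set of MSH6 had 0.050 and −0.0068, and which transcripts the discordant probe set detects was not tested. PMS1, a homologue of the mismatch protein PMS2, had −0.15 (BH-adjusted p = 0.196) after CD40L and −0.16 (BH-adjusted p = 0.242) after LPS, with no overlap of the groups in either. MSH3, which recognises insertion loops, had 0.040 and −0.052, and the exonuclease EXO1 −0.022 and −0.057.

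Of 8 genes of break sensing and homologous recombination, 1 was higher and 2 were lower after CD40L, and 1 was higher and 1 lower after LPS. These are counts of 1 or 2 genes. Among the 12630 genes at or above the median probe set, CD40L gave 7.81% higher and 4.47% lower calls. LPS gave 2.51% and 2.3%. NBN, MRE11 and RAD50 encode the 3 subunits of 1 complex that binds broken ends and calls in ATM. NBN read 10.12, 9.76 and 9.76 in control cells, 10.31, 10.38 and 10.18 after CD40L and 10.31, 10.17 and 10.12 after LPS. The CD40L arrays lay above all control arrays, and the LPS arrays met the highest control array at 10.12. The log2 fold change was 0.41 (SE 0.070, BH-adjusted p = 0.00181) after CD40L and 0.32 (SE 0.070, BH-adjusted p = 0.0226) after LPS. Of the 5 probe sets of NBN, 4 were called higher after CD40L and 2 after LPS, and the fifth was below the median probe set. The LPS call was lost without replicate 1 (0.38, BH-adjusted p = 0.0575), without replicate 3 (0.30, BH-adjusted p = 0.244) and without the replicate block (0.32, BH-adjusted p = 0.218). It was lost also without control replicate 2 (BH-adjusted p = 0.0611) or 3 (BH-adjusted p = 0.0696), without CD40L replicate 3 (BH-adjusted p = 0.0558), and without LPS replicate 1 (BH-adjusted p = 0.15), 2 (BH-adjusted p = 0.108) or 3 (BH-adjusted p = 0.16).
MRE11, the nuclease of the complex, had −0.14 (BH-adjusted p = 0.243) after CD40L and −0.23 (BH-adjusted p = 0.0518) after LPS. It read 8.44, 8.38 and 8.51 in control cells and 8.30, 8.12 and 8.22 after LPS, with no overlap, and was called lower without control replicate 1 (−0.28, BH-adjusted p = 0.0479). RAD50 had −0.0031 and −0.065 (SE 0.065 for each). Its other probe sets had 0.11 and 0.16 after CD40L and 0.051 and 0.12 after LPS, none of them called. RAD50 thus had no clear sign. On the probe sets used NBN alone of the 3 subunits was called, and the difference between them was not tested.
ATM, the kinase that starts the response to double strand breaks, read 8.09, 7.86 and 7.88 in control cells, 7.65, 7.53 and 7.60 after CD40L and 7.57, 7.53 and 7.62 after LPS. All stimulated arrays lay below all control arrays, and the stimuli overlapped each other. The log2 fold change was −0.35 (SE 0.061, BH-adjusted p = 0.00209) after CD40L and −0.37 (SE 0.061, BH-adjusted p = 0.0037) after LPS, and CD40L and LPS differed by 0.018 (BH-adjusted p = 0.999). Of its 6 probe sets 3 were called lower after each stimulus, one of them with −0.53 (BH-adjusted p = 1.6e-05) and −0.44 (BH-adjusted p = 0.000376), and the others, dimmer still, had −0.10 to 0.074 after CD40L and −0.11 to 0.033 after LPS. The calls were lost without replicate 1, with −0.30 (BH-adjusted p = 0.0581) after CD40L and −0.29 (BH-adjusted p = 0.147) after LPS, and the LPS call without LPS replicate 1 (−0.31, BH-adjusted p = 0.0725).
CHEK2, a checkpoint kinase that ATM activates, read 9.55, 9.42 and 9.51 in control cells, 9.12, 9.25 and 9.21 after CD40L and 9.31, 9.19 and 9.34 after LPS. Both stimuli lay below all control arrays, with −0.30 (SE 0.062, BH-adjusted p = 0.00745) after CD40L and −0.21 (SE 0.062, BH-adjusted p = 0.105) after LPS. The CD40L call was lost without replicate 1 (−0.24, BH-adjusted p = 0.183), without replicate 3 (−0.30, BH-adjusted p = 0.0786), without control replicate 1 (BH-adjusted p = 0.0572) and without CD40L replicate 1 (BH-adjusted p = 0.0833) or 3 (BH-adjusted p = 0.0528). CHEK1, the checkpoint kinase activated by ATR, had the opposite sign, with 0.21 (BH-adjusted p = 0.116) and 0.18 (BH-adjusted p = 0.278), and was not called. Without control replicate 3 or CD40L replicate 3 it was called higher after CD40L (0.28, BH-adjusted p = 0.0421, and 0.30, BH-adjusted p = 0.0383). ATR, the kinase that answers stalled replication forks, had −0.0096 and 0.039, and BRCA1, which directs breaks to homologous recombination, −0.024 and −0.0030.

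**Figure D3:**
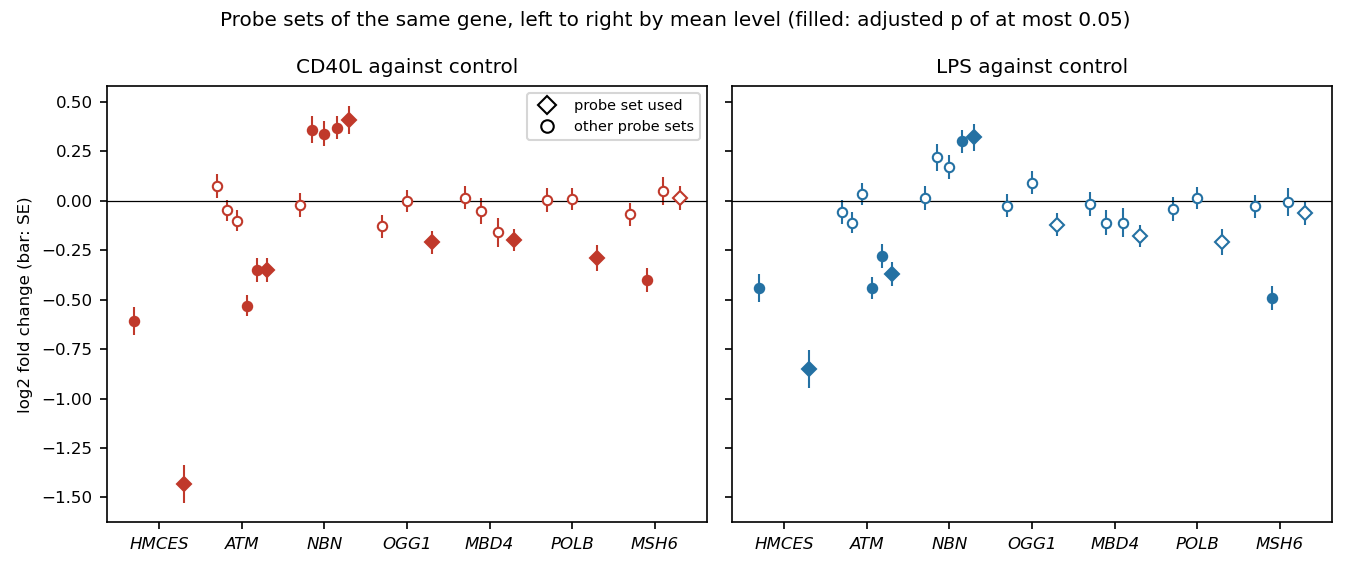
Log2 fold changes against control of every probe set of 7 repair genes, with standard errors, ordered within each gene by mean level from left to right. Diamonds are the probe sets used, and filled symbols passed the threshold. Both probe sets of HMCES and 4 of 5 of NBN passed after CD40L, whereas for MSH6 a dimmer one passed and the one used did not.

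No gene of end joining or of translesion synthesis was called after either stimulus. End joining of double strand breaks begins with the ring of XRCC5 and XRCC6 (Ku80 and Ku70), which recruits the kinase PRKDC. XRCC5 had log2 fold changes of 0.038 after CD40L and 0.0081 after LPS, and XRCC6 −0.027 and −0.015. PRKDC had −0.081 and −0.0047 and the nuclease DCLRE1C (Artemis) 0.19 and 0.027. XRCC4 had −0.062 and −0.079 and its partner LIG4, the ligase of the pathway, −0.047 and −0.057. TP53BP1, which protects ends from resection, had −0.027 and −0.077, and RIF1, its effector, 0.13 and 0.17. In PRKDC the batches stood apart, with 10.77 and 10.94 in the stimulated cells of batch 2 and 10.21 to 10.50 in those of the other batches. DCLRE1C read 8.56, 8.41 and 8.05 after CD40L against 8.26, 8.06 and 8.15 in control cells. Without control replicate 2 PRKDC was called lower after CD40L (−0.26, BH-adjusted p = 0.0189), and without control replicate 3 (0.31, BH-adjusted p = 0.0159) or without replicate 3 (0.33, BH-adjusted p = 0.0441) DCLRE1C was called higher.
The translesion polymerase POLH had −0.060 and −0.076. REV1, which holds other translesion polymerases at the fork, had 0.11 and 0.043, and REV3L, the catalytic part of polymerase zeta, 0.027 and 0.087. For the genes not called, the 95% intervals of the log2 fold changes lay within −0.31 to 0.36 after CD40L (33 genes) and within −0.35 to 0.37 after LPS (37 genes), so that changes smaller than these bounds could have been missed. At an unadjusted p under 0.05 there were 17 of the 41 repair genes after CD40L, called ones included, beside 29.0% of the 12630 genes at or above the median probe set, and 14 after LPS, beside 21.5%.

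**Figure D4:**
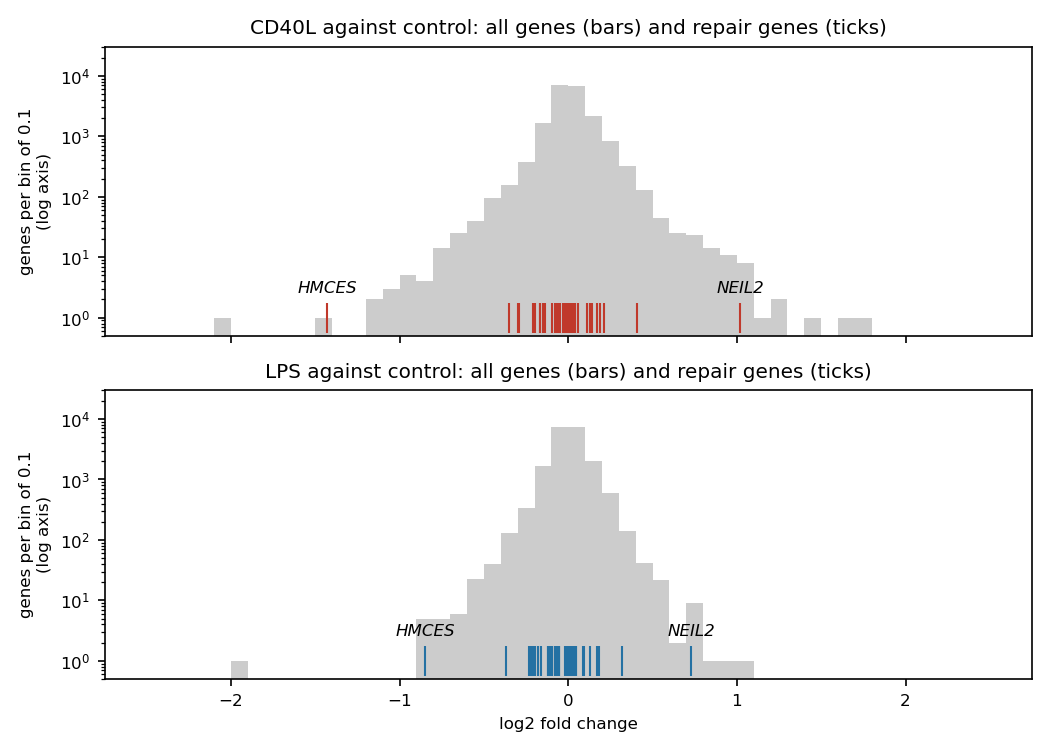
Histograms of the log2 fold changes of all 19775 genes (brightest probe set, bins of 0.1, number of genes on a log axis) after CD40L and LPS, with ticks for the 41 repair genes. HMCES and NEIL2, chosen with their results known, lie in the tails. The other repair genes lie between −0.35 and 0.41 after CD40L and between −0.37 and 0.32 after LPS.

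A second list held 112 other genes, mostly of repair, of which 98 have a probe set of their own. After CD40L, 5 of them were higher and 4 lower, and after LPS 2 were higher and 1 lower, with median log2 fold changes of 0.052 and 0.011. These are 5.1% and 4.08% after CD40L, and 2.04% and 1.02% after LPS. Over all 19775 genes the shares were 5.03% and 2.92%, and 1.62% and 1.48%. Among the 12630 genes at or above the median probe set they were 7.81% and 4.47%, and 2.51% and 2.3%. The shares were not tested, and nothing particular to these genes is read from them. UBE2A, a ubiquitin conjugating enzyme that works with RAD18 in damage tolerance, had 0.51 (SE 0.069, BH-adjusted p = 0.000254) after CD40L and 0.29 (SE 0.069, BH-adjusted p = 0.0373) after LPS. The 98 genes include 5 cytidine deaminases of the APOBEC3 family, which are not repair enzymes. APOBEC3G, 1 of these deaminases, acts in antiviral defence and is counted among the genes higher after CD40L. It had 0.33 (BH-adjusted p = 0.00743) and 0.034 (BH-adjusted p = 0.935). XPC, which finds distorted DNA for nucleotide excision repair, fell by 0.22 on the log2 scale after CD40L (BH-adjusted p = 0.0216) and by 0.32 after LPS (BH-adjusted p = 0.00439). ALKBH2, which reverses alkylation directly, had −0.31 (BH-adjusted p = 0.0258) after CD40L, and RFC1, a subunit of the clamp loader of replication, had −0.27 (BH-adjusted p = 0.025). H2AX, the histone that is phosphorylated around breaks, had 0.27 (BH-adjusted p = 0.0107) after CD40L. The nuclease FAN1 had 0.23 after each stimulus (BH-adjusted p = 0.0201 and 0.0468).

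Other gene groups also held called genes after the same stimuli. Among the 12630 genes at or above the median probe set, 7.81% were called higher and 4.47% lower after CD40L. After LPS these shares were 2.51% and 2.3%. All 4 germinal centre markers measured (BCL6, MME, CD38 and MYBL1) were lower after both, and their mean level was 9.86 to 9.95 on control arrays, 9.30 to 9.37 after CD40L and 9.43 to 9.59 after LPS. Of 6 B cell markers 4 were lower after CD40L and 2 after LPS. Their part in the changes of the repair genes was not tested. Of 20 S phase and proliferation genes, 2 were higher and none lower after CD40L, MCM3 (0.24, BH-adjusted p = 0.0273) and MCM7 (0.27, BH-adjusted p = 0.00787), and 2 were higher after LPS, MCM7 (0.23, BH-adjusted p = 0.0468) and CDC6 (0.24, BH-adjusted p = 0.0383). The mean level of these 20 genes was 10.80 to 10.88 on control arrays, 10.86 to 10.95 after CD40L and 10.81 to 10.94 after LPS, so the groups overlapped. Of 14 p53 targets and damage response genes, 1 was higher and 2 lower after CD40L. These were FAS, a death receptor (0.79, BH-adjusted p = 1.47e-06), RRM2B, a ribonucleotide reductase subunit (−0.35, BH-adjusted p = 0.01), and GADD45A (−0.28, BH-adjusted p = 0.0154). After LPS, FAS (0.26, BH-adjusted p = 0.0474) and GADD45B (0.30, BH-adjusted p = 0.0349) were higher and GADD45A (−0.29, BH-adjusted p = 0.0252) was lower. T and NK cell, monocyte and fibroblast markers (17 genes measured) had no member called after either stimulus on the brightest probe set. Below the median probe set were 5 of 7, 4 of 5 and 3 of 5 of them, where a change is hard to see. The study, which kept the best responding probe set of each gene, lists the fibroblast marker COL1A1 among the genes most changed by CD40L.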

How the data were processed

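Gene expression was measured in 9 samples of BL2 cells, 3 each of control, CD40L and LPS, grouped by the treatment label. The authors corrected the background, normalised probe intensities by variance stabilisation, obtained probe set values by median polish and deposited them in 1 table on a generalised log2 scale; software versions are not given in the sources used here. No further normalization of the deposited log2 values was made. Of 54675 probe sets, 62 AFFX controls were left out. Probe sets were named by the platform annotation where it gives 1 gene (41091), with symbols updated through the Entrez identifier from the GRCh38.p14 gene table. No filter on low values was applied.

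Fits used limma 3.58.1 in R 4.3.3 on the 9 arrays together, modelling condition and batch (4 residual and 11.6 prior degrees of freedom), two-sided, with Benjamini-Hochberg adjustment. The labels number the batches, and samples with the same number were taken as paired on that ground. After removing group means they correlated at 0.217 on average (pairs from −0.181 to 0.466). Pairs from different batches ranged from −0.486 to 0.382, so the 2 ranges overlap. In batch 2 the control array correlated at −0.181 with CD40L and at −0.0401 with LPS. Every other same-batch pair was positive, at 0.183 or more. The number of arrays limits the precision. An exact permutation test of 3 against 3 arrays cannot go below 0.1 and was not used. The batches are numbered in the labels and are independent biological experiments per the study. The procedure was tested on simulated data, where recovery was required only of changes larger than those of most called repair genes. This test therefore says little about the smaller calls.

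The 44 genes and all lists were chosen with earlier results of these data known, among them those of HMCES and NEIL2. Named are all members, up to 6 called genes per comparison of each other list with the largest change, and the stimulation markers. Cell type markers and receptors are named as checks of the cells. Alternatives dropped the batch, made it a random effect (statmod 1.5.0), fitted 2 groups alone, left out dim probe sets, centred arrays or quantile-normalised them, and used eBayes with trend and robust, other choices of probe set, and each batch or array left out. Promoter sequences are from RefSeq.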

Additional observations from a re-analysis of the deposited data

Results flagged for a closer look

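HMCES was the gene of the 41 whose response differed between the stimuli in limma's direct comparison, with CD40L minus LPS at −0.58 on the log2 scale (adjusted p = 0.009). CD40L arrays were lower than LPS arrays in all 3 batches. The call was lost in 9 of 21 alternatives, with values from −0.74 to −0.38.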

How the results depend on the processing

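All 13 calls of repair genes kept their direction in each of the 21 alternatives. HMCES and NBN after CD40L, NEIL2 after CD40L and HMCES after LPS stayed past the threshold in each. Their log2 fold changes ranged from −1.57 to −1.02, 0.29 to 0.52, 0.78 to 1.21 and −1.03 to −0.64. The replicate block mattered for both stimuli. Without the block, and with the batch as a random effect, 4 genes rather than 6 were lower after CD40L, OGG1 and MBD4 being lost, 1 gene was higher after LPS rather than 2, NBN being lost, and without the block 0 genes were lower after CD40L than after LPS. Quantile normalization on top of the deposited values gave 9 lower genes after CD40L and 8 after LPS rather than 6 and 2, with 2 higher in each, and moved the median of the repair genes to −0.078 and −0.098. With the mean of all probe sets of a gene, 3 genes were lower after CD40L and 0 were lower after CD40L than after LPS. In the fit of 2 groups alone 1 gene, NEIL2, was higher after CD40L than after LPS. With the probe set of largest change MSH6 turned to −0.40 after CD40L. Leaving out a batch or an array gave 2 to 4 higher and 1 to 5 lower genes after CD40L, 0 to 2 higher and 1 to 3 lower after LPS, and 0 to 1 in each direction for CD40L against LPS. The cause of these shifts was not tested. The deposited values carry no detection calls, so signal over background could not be given, and small changes near the bounds above can be missed with 3 arrays per condition.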
